A study of Danio rerio with 6 samples.

Results

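The 10 genes described here code for the vascular endothelial growth factor (VEGF) ligands Vegfaa, Vegfab, Vegfba and Vegfc, the VEGF receptors Kdr, Kdrl, Flt1 and Flt4, and the neuropilin coreceptors Nrp1a and Nrp1b. They were chosen by name, as the genes that carry these symbols among the 34326 genes of a zebrafish RNA-seq series. All 10 symbols were found in the files, each once, and all 10 passed the abundance minimum, a mean of 1 CPM over the libraries, as did 19194 genes in all. CPM is the read count of a gene scaled to the same total of reads counted on genes in every library.

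VEGF ligands are secreted proteins that bind receptor tyrosine kinases on endothelial cells, the cells that line blood and lymphatic vessels. Kdrl and Kdr are the zebrafish counterparts of the receptor called VEGFR2 in mammals, which carries the main signal for vessel sprouting, while Flt1 binds the same ligands with high affinity and in embryos acts largely as a decoy that limits that signal. Flt4 is the receptor of Vegfc in lymphatic and venous growth, and the neuropilins bind VEGF beside the receptors and also serve semaphorin signals in neurons.

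RNA from whole zebrafish embryos at 36 hours post fertilization (hpf) was sequenced in 6 conditions, 1 library each. Homozygous *tars*-/- embryos, which carry a nonsense change in the gene of threonyl-tRNA synthetase (Tars) from a mutagenesis screen, were compared with sibling embryos of the same litters, labelled as WT. The *tars* line was kept as heterozygotes, and whether the siblings included heterozygous embryos is not given in the sources used here. Each genotype was sequenced uninjected (control), after *gcn2* MO and after *perk* MO. A morpholino (MO) is an antisense oligonucleotide that lowers the amount of a protein, and here it was injected at the one-cell stage against Gcn2 or Perk, the kinases that start the amino acid response (AAR) and one arm of the unfolded protein response (UPR). The general methods of the study name a compound used to prevent pigmentation, without saying which embryos received it. The controls were not injected, so the effect of a morpholino and the effect of the injection cannot be told apart. The number of embryos pooled per library, and whether the sequenced embryos carried the *flk1* reporter transgene with which the line had been crossed, are not given in the sources used here. The study asked which of these kinase pathways accounts for the vessel phenotype of *tars*-/- embryos.

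With 1 library per condition there were no replicates, and a difference from one library to another cannot be set beside the variation among embryos of the same kind. Each ratio of CPM is given with an exact 95% Clopper-Pearson interval of the counts given the totals, which covers counting error only. The libraries held 29949451 to 47516784 counted reads. At these depths the interval left out 1 for 53.2%, 57.2% and 63.6% of all genes between genotypes (controls, *gcn2* MO, *perk* MO). The shares were 55% and 65.3% for *gcn2* MO and *perk* MO against control in siblings and 64.2% and 53.9% in *tars*-/- embryos, so a ratio beyond counting error is common and is no test of the condition. *tars* itself (ENSDARG00000013250) was at 68.1 to 95.9 CPM in the 3 sibling libraries and at 21.3 to 37.3 CPM in the 3 *tars*-/- libraries, so the labels of genotype matched its level. The libraries of *tars*-/- embryos with *gcn2* MO and siblings with *perk* MO stood apart in other genes: 8 target genes of p53 summed to 3665 and 3810 CPM there against 821 to 1588 CPM in the other 4 libraries, and 16 neural markers summed to 1631 and 1496 CPM against 2183 to 2908 CPM.

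Of the 4 ligands, *vegfaa* (ENSDARG00000103542), which codes for the main angiogenic ligand of the zebrafish embryo, differed most between the conditions. The sibling libraries had levels of 11.7 (uninjected), 12.0 (*gcn2* MO) and 14.2 CPM (*perk* MO). The *tars*-/- libraries had levels of 44.8 (uninjected), 19.8 (*gcn2* MO) and 42.6 CPM (*perk* MO). The 3 *tars*-/- libraries were all above the 3 sibling libraries. Among the *tars*-/- libraries, the one with *gcn2* MO stood far below the other two, whose ratio of control to *perk* MO was 1.05 (0.984 to 1.12). That interval includes 1, but with TMM factors, another scaling of the libraries, the ratio was 1.09 (1.02 to 1.17), so whether it passed counting error depended on the scaling.

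Between the uninjected controls, *vegfaa* was 3.83 times as high in *tars*-/- embryos as in siblings (3.45 to 4.25), the 51st highest of the 19194 genes tested. With *gcn2* MO in both genotypes the ratio was 1.66 (1.46 to 1.88), rank 944, and with *perk* MO in both it was 3.01 (2.71 to 3.35), rank 172. The genotype ratio with *gcn2* MO was thus 0.433 of that without injection (0.368 to 0.508), and that with *perk* MO 0.786 (0.679 to 0.911). These comparisons share the control libraries and are not independent of each other. Set against its own control, *gcn2* MO gave a *vegfaa* level of 0.442 in *tars*-/- embryos (0.403 to 0.485) and 1.02 in siblings (0.893 to 1.17). The corresponding ratios for *perk* MO were 0.951 in *tars*-/- embryos (0.890 to 1.02) and 1.21 in siblings (1.06 to 1.38). The *tars*-/- library with *gcn2* MO is one of the 2 that stood apart. In it 0 of 16 neural markers were above the *tars*-/- control, with a median log2 ratio of −0.70. There 8 of 8 p53 target genes were above it, with a median of 1.64. Of all genes, 59.8% were at or above a log2 ratio of −0.0018. The 8 p53 target genes were also all above the control of their genotype in the other injected libraries. Their medians were 0.70 (*perk* MO in *tars*-/- embryos), 0.85 (*gcn2* MO in siblings) and 2.40 (*perk* MO in siblings). The part of the neural and p53 genes in the levels of *vegfaa* and of the other members in this library was not tested.

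*vegfab* (ENSDARG00000034700), the second copy of the Vegfa gene, had the same order of libraries at the top on a smaller scale. Its levels in siblings were 11.5 (uninjected), 12.9 (*gcn2* MO) and 11.7 CPM (*perk* MO), and those in *tars*-/- embryos were 17.5, 14.0 and 17.4 CPM in the same order. The genotypes again did not overlap, but *tars*-/- embryos and siblings that both had *gcn2* MO did not differ beyond counting error. The genotype ratio was 1.53 in the controls (1.35 to 1.73), 1.08 with *gcn2* MO (0.949 to 1.24) and 1.48 with *perk* MO (1.31 to 1.69). Within *tars*-/- embryos *gcn2* MO gave 0.799 of the control level (0.707 to 0.904) and *perk* MO 0.991 (0.892 to 1.1).

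*vegfc* (ENSDARG00000069640) codes for the ligand of Flt4 and was counted with only 70 to 130 reads per library. Its levels in siblings were 2.05 (uninjected), 2.09 (*gcn2* MO) and 2.40 CPM (*perk* MO), against 3.67, 2.18 and 2.38 CPM for the same injections in *tars*-/- embryos. The *tars*-/- control was the highest library, 1.53 times the next (1.13 to 2.06), and the other 5 libraries followed one another within counting error. The genotype ratio was 1.79 in the controls (1.35 to 2.39), 1.04 with *gcn2* MO (0.740 to 1.46) and 0.989 with *perk* MO (0.730 to 1.35). *vegfc* was lower than the *tars*-/- control with either morpholino, at 0.594 with *gcn2* MO (0.437 to 0.800) and 0.649 with *perk* MO (0.5 to 0.841). For *vegfaa* the ratio with *perk* MO was 0.951 (0.890 to 1.02), or 0.916 (0.857 to 0.979) with TMM factors.

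*vegfba* (ENSDARG00000090997), a gene of the VEGFB type, was the ligand with the fewest reads, 46 to 113 per library. The sibling libraries were at 1.16 (uninjected), 2.04 (*gcn2* MO) and 2.10 CPM (*perk* MO), and the *tars*-/- libraries at 1.75, 2.46 and 2.38 CPM in that order. The sibling control was the lowest library and the only one that differed from its neighbour in order beyond counting error. The 2 control libraries were the lowest of the 6, and the ratio of morpholino to control was 1.75 for *gcn2* MO (1.19 to 2.59) and 1.81 for *perk* MO (1.22 to 2.71) in siblings, against 1.40 (0.995 to 1.99) and 1.36 (0.989 to 1.89) in *tars*-/- embryos.

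**Figure D1:**
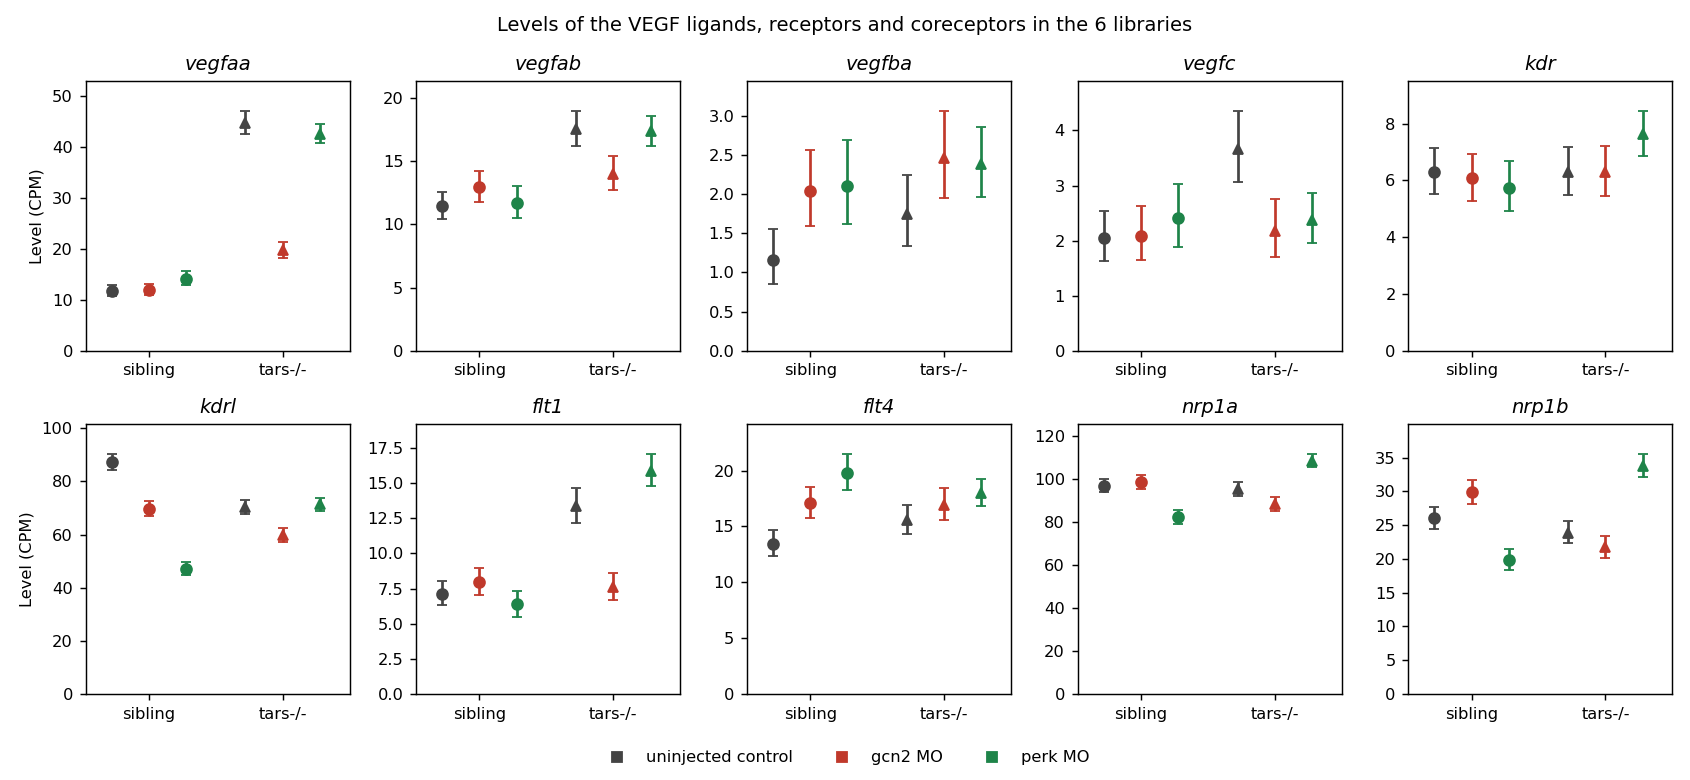
Level in CPM of each of the 10 genes in the 6 libraries, sibling (circles) and *tars*-/- (triangles), as uninjected control (grey), with *gcn2* MO (red) or with *perk* MO (green). Points are single libraries and bars are exact 95% counting intervals. For *vegfaa* the *tars*-/- control at 44.8 CPM and *perk* MO library at 42.6 CPM stand above the *tars*-/- *gcn2* MO library at 19.8 CPM and the 3 sibling libraries at 11.7 to 14.2 CPM.

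Among the receptors, *flt1* (ENSDARG00000019371) had a pattern close to that of *vegfaa*, with exceptions. It did not differ between genotypes with *gcn2* MO beyond counting error, and its highest library was *tars*-/- with *perk* MO, not the *tars*-/- control. Siblings had levels of 7.13 (uninjected), 7.94 (*gcn2* MO) and 6.38 CPM (*perk* MO), and *tars*-/- embryos had levels of 13.4 (uninjected), 7.62 (*gcn2* MO) and 15.9 CPM (*perk* MO). The *tars*-/- control and *perk* MO libraries were high, and the *tars*-/- *gcn2* MO library lay within the range of the siblings, so the genotypes overlapped.

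The genotype ratio of *flt1* was 1.87 in the controls (1.61 to 2.18), rank 289 of 19194, and 0.959 with *gcn2* MO (0.805 to 1.14), rank 11238. With *perk* MO in both genotypes it was 2.49 (2.12 to 2.94), rank 330. Against the *tars*-/- control, *gcn2* MO gave a level of 0.570 (0.486 to 0.666) and *perk* MO 1.19 (1.06 to 1.34), whereas in siblings neither morpholino differed from the control beyond counting error (1.11, 0.941 to 1.32, and 0.894, 0.740 to 1.08). The genotype ratio with *gcn2* MO was 0.512 of that without injection (0.408 to 0.641), and that with *perk* MO was 1.33 times it (1.07 to 1.65).

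*kdrl* (ENSDARG00000105215), the receptor whose promoter is widely used to label zebrafish endothelium, was not higher in *tars*-/- controls. Siblings had levels of 87.3 (uninjected), 69.8 (*gcn2* MO) and 47.0 CPM (*perk* MO), the highest and the lowest library both being siblings. The *tars*-/- libraries lay between these at 70.3 (uninjected), 59.7 (*gcn2* MO) and 71.4 CPM (*perk* MO), so the genotypes overlapped. The genotype ratio was 0.806 in the controls (0.765 to 0.848) and 0.855 with *gcn2* MO (0.805 to 0.908), but 1.52 with *perk* MO (1.43 to 1.62). The last ratio rested on the sibling library, in which *perk* MO gave 0.539 of the control level (0.506 to 0.574), while in *tars*-/- embryos *perk* MO gave 1.02 (0.964 to 1.07).

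That sibling library with *perk* MO is one of the 2 that stood apart in p53 target genes and neural markers, and in it 8 of the 16 neural markers were at least 2-fold below the sibling control, with a median log2 ratio of −0.99, against 5.27% of all genes. In the same comparison 1 of 29 endothelial markers was at least 2-fold lower, their median log2 ratio was −0.20 beside −0.04 for all genes, and they summed to 784 CPM in siblings with *perk* MO against 830 to 927 CPM in the other 5 libraries. The part of either in the *kdrl* level was not tested. In RNA from whole embryos, fewer endothelial cells and less *kdrl* RNA per cell cannot be told apart. As a share of the endothelial marker sum, *kdrl* was 9.42% (uninjected), 7.79% (*gcn2* MO) and 6.0% (*perk* MO) in siblings, and 7.96%, 7.19% and 7.90% in *tars*-/- embryos in the same order. The markers did not move alike: in siblings with *perk* MO their log2 ratios to the control ran from −1.04 to 0.75, with 9 of 29 higher. *prox1a*, which is also a factor of neurons, was at −0.74 there, so the sum is not a measure of endothelial cells alone.

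*kdr* (ENSDARG00000017321), the other receptor of the VEGFR2 type, was the receptor with the smallest range of levels. Its levels were 6.30 (uninjected), 6.08 (*gcn2* MO) and 5.74 CPM (*perk* MO) in siblings, and 6.29, 6.28 and 7.62 CPM in the *tars*-/- libraries in that order. Its genotype ratio was 0.999 in the controls (0.830 to 1.2), 1.03 with *gcn2* MO (0.849 to 1.26) and 1.33 with *perk* MO (1.1 to 1.60). The *tars*-/- *perk* MO library was the only one that differed from its neighbour in order beyond counting error.

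*flt4* (ENSDARG00000104453) was lowest in the sibling control. Its levels in siblings were 13.5 (uninjected), 17.1 (*gcn2* MO) and 19.8 CPM (*perk* MO), and in *tars*-/- embryos 15.6 (uninjected), 16.9 (*gcn2* MO) and 18.0 CPM (*perk* MO). The 2 control libraries were thus the lowest, as for *vegfba*. In siblings the ratio to the control was 1.27 for *gcn2* MO (1.13 to 1.43) and 1.47 for *perk* MO (1.31 to 1.66), and in *tars*-/- embryos it was 1.09 (0.964 to 1.23) and 1.16 (1.04 to 1.29). The genotype ratio of *flt4* was 1.16 in the controls (1.03 to 1.31), 0.991 with *gcn2* MO (0.881 to 1.11) and 0.910 with *perk* MO (0.818 to 1.01). In siblings *flt4* was thus highest with *perk* MO, the library in which *kdrl* was lowest, and over the 6 libraries the log2 levels of these receptors had a Pearson r of −0.85 (n = 6), given as a description of libraries that share their conditions.

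The coreceptor *nrp1a* (ENSDARG00000102153) had levels of 96.8 (uninjected), 98.4 (*gcn2* MO) and 82.0 CPM (*perk* MO) in siblings, and of 95.2, 88.1 and 108 CPM in the *tars*-/- libraries in that order. Its copy *nrp1b* (ENSDARG00000027290) had sibling levels of 26.1, 29.9 and 19.9 CPM and *tars*-/- levels of 23.9, 21.8 and 33.8 CPM in the same order. For both coreceptors *perk* MO gave the lowest library in siblings and the highest in *tars*-/- embryos. The genotype ratio in the controls was 0.983 for *nrp1a* (0.939 to 1.03) and 0.916 for *nrp1b* (0.836 to 1.00).

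With *perk* MO in both genotypes the ratio was 1.32 for *nrp1a* (1.26 to 1.39) and 1.7 for *nrp1b* (1.55 to 1.87), and with *gcn2* MO in both it was 0.895 (0.851 to 0.941) and 0.729 (0.661 to 0.802). The genotype ratio of *nrp1b* with *perk* MO was 1.86 times that without injection (1.63 to 2.12), against 1.88 times for *kdrl* (1.74 to 2.04) and 1.34 times for *nrp1a* (1.26 to 1.44). In that comparison all 16 neural markers were higher in the *tars*-/- library, with a median log2 ratio of 0.51. Neuropilins are also expressed by neurons, and the part of neural RNA in these ratios was not tested.

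**Figure D2:**
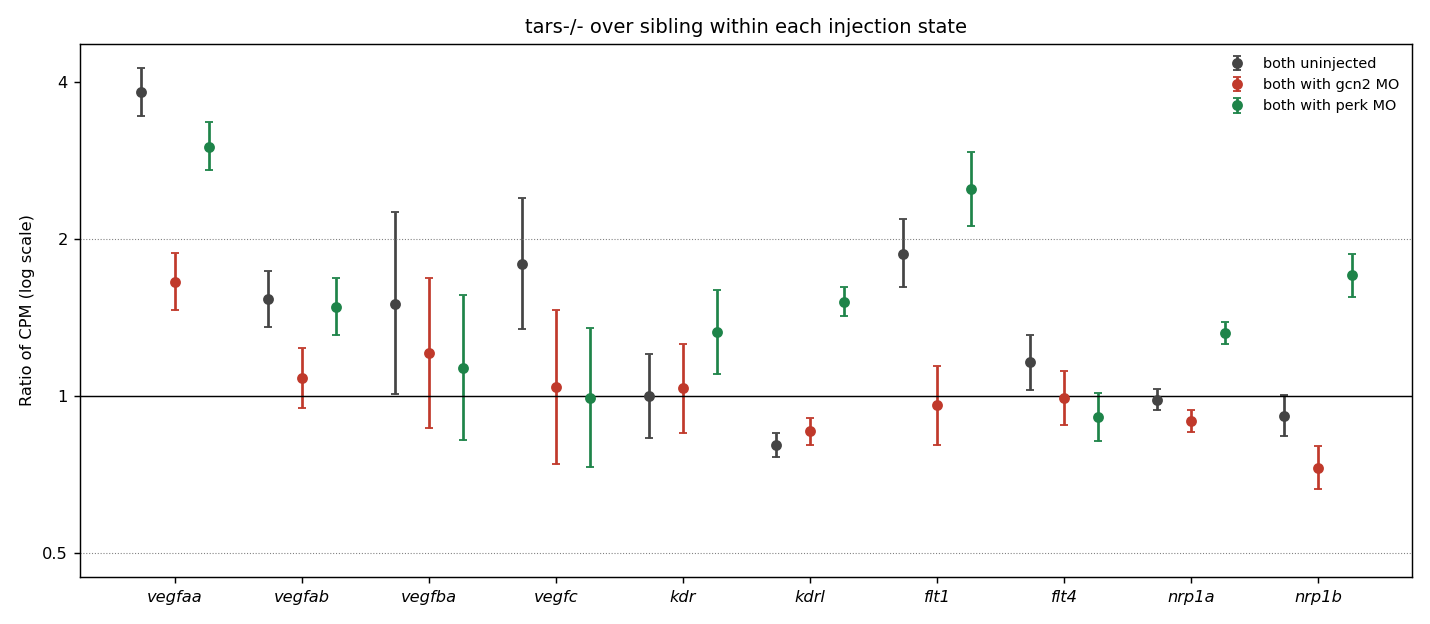
Ratio of the CPM of each gene in *tars*-/- over sibling embryos on a log axis, for the uninjected controls (grey), with *gcn2* MO in both (red) and with *perk* MO in both (green). Bars are exact 95% counting intervals and dotted lines mark 2-fold. For *vegfaa* the ratio is 3.83 and 3.01 without injection and with *perk* MO but 1.66 with *gcn2* MO, and for *flt1* it is 1.87 and 2.49 but 0.959.

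Of the 10 genes, 1, *vegfaa*, was at least 2-fold higher in the *tars*-/- control than in the sibling control, against 1.11% of all genes, and 0 were 2-fold lower, against 0.568%. Folds for such counts were taken after adding 0.5 CPM. At 1.5-fold there were 4 higher members, *vegfaa*, *flt1*, *vegfc* and *vegfab*, against 2.89% of all genes, and 0 lower, against 5.52%. The median log2 ratio of the 10 genes was 0.32 beside −0.11 for all genes tested, a median that scaling with TMM factors set to 0.00. With *gcn2* MO in both genotypes 0 members were 2-fold higher, against 1.85% of all genes, and 1, *vegfaa*, was 1.5-fold higher, against 7.66%. There were 0 members lower by 2-fold or 1.5-fold, where 1.17% and 6.2% of all genes were. With *perk* MO in both genotypes 2 were 2-fold higher, *vegfaa* and *flt1*, against 3.39% of all genes. There, 4 were 1.5-fold higher, with *kdrl* and *nrp1b* beside these, against 11.3%, and 0 were 2-fold or 1.5-fold lower, against 2.01% and 8.12%.

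With *gcn2* MO in *tars*-/- embryos 1 member, *vegfaa*, was at least 2-fold below the control, against 2.68% of all genes, and 3 were 1.5-fold below it, *vegfaa*, *flt1* and *vegfc*, against 8.21%. None was 2-fold or 1.5-fold above it, against 2.97% and 12.9% of all genes. This comparison shares the *tars*-/- control with the one above, so a high value in that library enters both. With *perk* MO in *tars*-/- embryos 0 members passed 2-fold or 1.5-fold in either direction, where 0.781% of all genes were 2-fold higher and 0.5% lower, and 5.45% were 1.5-fold higher and 2.86% lower. In siblings, *vegfba* was 1.5-fold higher with *gcn2* MO, against 3.8% of all genes, and with *perk* MO, against 9.08%, while *kdrl* was the 1 member 1.5-fold lower with *perk* MO, against 14.8%. With *gcn2* MO in siblings 0 were 1.5-fold lower, against 6.52%. 0 members passed 2-fold in siblings, where the 2-fold shares of all genes were 0.745% higher and 1.11% lower with *gcn2* MO, and 2.5% higher and 5.27% lower with *perk* MO.

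**Figure D3:**
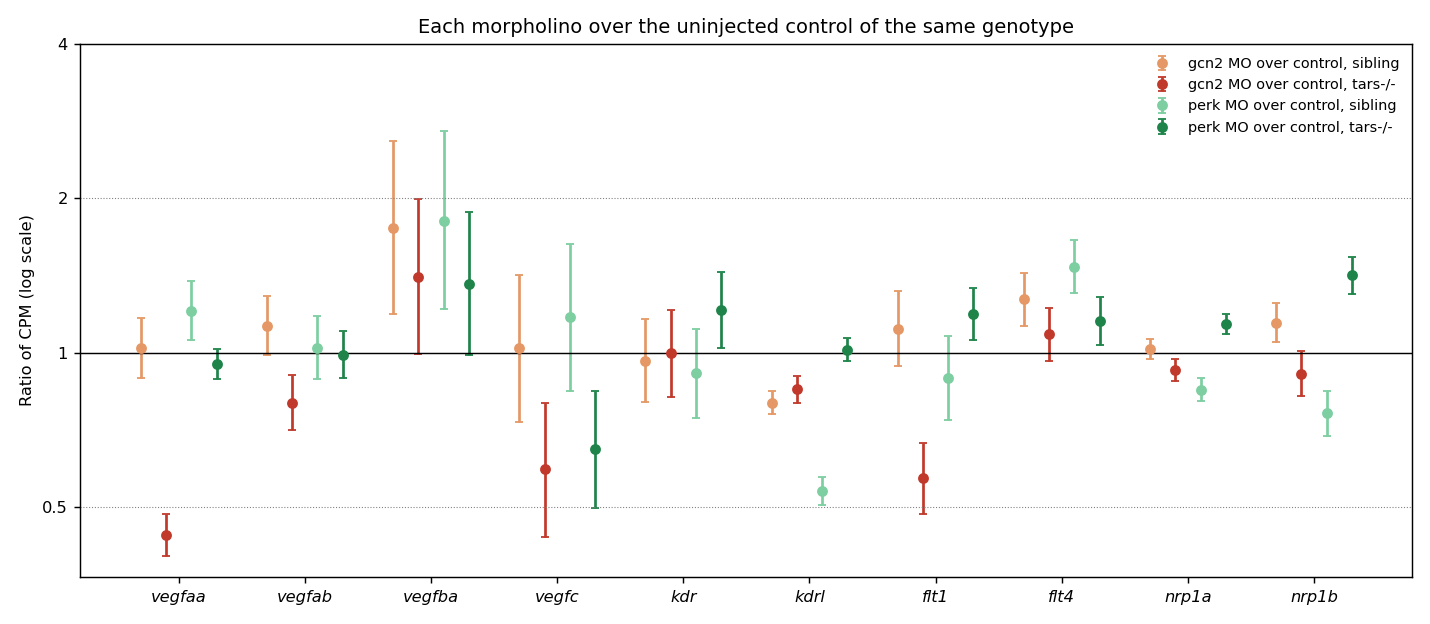
Ratio of the CPM of each gene with a morpholino over the uninjected control of the same genotype, on a log axis, for *gcn2* MO in siblings (light orange) and *tars*-/- embryos (red) and for *perk* MO in siblings (light green) and *tars*-/- embryos (dark green). Bars are exact 95% counting intervals. *vegfaa* and *flt1* are at 0.442 and 0.570 of the control with *gcn2* MO in *tars*-/- embryos, and *kdrl* is at 0.539 with *perk* MO in siblings.

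The genotype effect over the 3 injection states was tested with edgeR's quasi-likelihood test with the injection state as a term, which left 2 residual degrees of freedom. After Benjamini-Hochberg adjustment over the 19194 genes, 0% of all genes and 0 of the 10 members passed 0.05. At an unadjusted p under 0.05 there were 669 genes (3.49%) and 3 members. These were *vegfaa*, with a log2 fold change of 1.46 (SE 0.27, edgeR adjusted p = 0.358), *flt1*, with 0.76 (SE 0.29), and *vegfab*, with 0.47 (SE 0.18). In this model a genotype effect that a morpholino changes counts as residual spread. DESeq2 on the same design called 191 genes (0.995%), of which 1 was a member, *vegfaa*, with an adjusted p of 6.51e-05. Over the alternatives the adjusted p of *vegfaa* ranged from 5.12e-05 without the *gcn2* MO libraries to 1 without the uninjected libraries. The *gcn2* MO libraries held the lowest genotype ratio of *vegfaa*, so leaving them out raises its fold change by construction.

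*vegfaa* and *vegfab* were the 2 members whose 3 *tars*-/- libraries all lay above the 3 sibling libraries, an order that 3.61% of all genes had, and 0 members had the opposite order, against 4.65%. For a single gene, 3 libraries against 3 cannot go below a two-sided p of 0.1 in an exact permutation test, which is what *vegfaa* and *vegfab* gave. This permutation test exchanged libraries across injection states. It thus ignored the pairing by injection and treated the injection states as replicates, which they are not. The libraries of *tars*-/- embryos with *gcn2* MO and siblings with *perk* MO enter this test and stood apart in other genes. They hold the lowest *vegfaa* level of the *tars*-/- libraries (19.8 CPM) and the highest of the sibling libraries (14.2 CPM). Leaving them out therefore widens the genotype difference of *vegfaa* by construction. Without them and without an injection term, in a model chosen after seeing the data, *vegfaa* had a log2 fold change of 1.96. The edgeR adjusted p of 0.00305 in that model follows in part from this choice of libraries and is no further support. In that model *gcn2* MO occurred only in siblings and *perk* MO only in *tars*-/- embryos, so its genotype effect is mixed with those of the morpholinos.

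Levels of different genes can be compared only per length, for which the deposited FPKM (fragments per unit of gene length and of counted reads) was used. *vegfaa* and *vegfab* were the most abundant ligands per length in all 6 libraries. Siblings held 4.40 (uninjected), 4.50 (*gcn2* MO) and 5.33 FPKM (*perk* MO) of *vegfaa*, and *tars*-/- embryos 16.9, 7.45 and 16.0 FPKM in the same order. For *vegfab* the sibling values were 3.77, 4.27 and 3.86 FPKM and the *tars*-/- values 5.78, 4.62 and 5.73 FPKM. *vegfaa* thus went from 1.17 times *vegfab* in the sibling control to 2.92 times in the *tars*-/- control, and was at 1.61 times in *tars*-/- embryos with *gcn2* MO. It made up 45.1% to 50.5% of the summed ligand FPKM in the siblings, and 68.8% (uninjected), 55.7% (*gcn2* MO) and 69.3% (*perk* MO) in *tars*-/- embryos. The summed level of the 4 ligands was 9.25 to 10.5 FPKM in the siblings and 24.5, 13.4 and 23.1 FPKM in *tars*-/- embryos.

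The summed level of the 4 receptors did not follow that of the ligands. Siblings had sums of 20.4 (uninjected), 18.3 (*gcn2* MO) and 14.7 FPKM (*perk* MO), and *tars*-/- embryos 19.1, 16.5 and 20.5 FPKM. *kdrl* made up most of it in every library, from 54.5% to 73.0%. The values of *flt1* were 1.3, 1.44 and 1.16 FPKM in siblings and 2.43, 1.39 and 2.89 FPKM in *tars*-/- embryos. Its share of the receptor sum was 6.37% to 7.89% in siblings and 8.38% in *tars*-/- embryos with *gcn2* MO, against 12.7% in the *tars*-/- control and 14.1% with *perk* MO. *kdrl* was at 11.5 times *flt1* in the sibling control, 4.92 times in the *tars*-/- control, 7.33 times in *tars*-/- embryos with *gcn2* MO and 4.20 times with *perk* MO. Per length, *flt4* was at 3.03 to 4.46 FPKM, *kdr* at 1.07 to 1.42 FPKM, *nrp1a* at 11.5 to 15.2 FPKM and *nrp1b* at 4.01 to 6.82 FPKM. *vegfc*, at 0.916 to 1.64 FPKM, and *vegfba*, at 0.156 to 0.330 FPKM, were the ligands with the lowest levels.

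**Figure D4:**
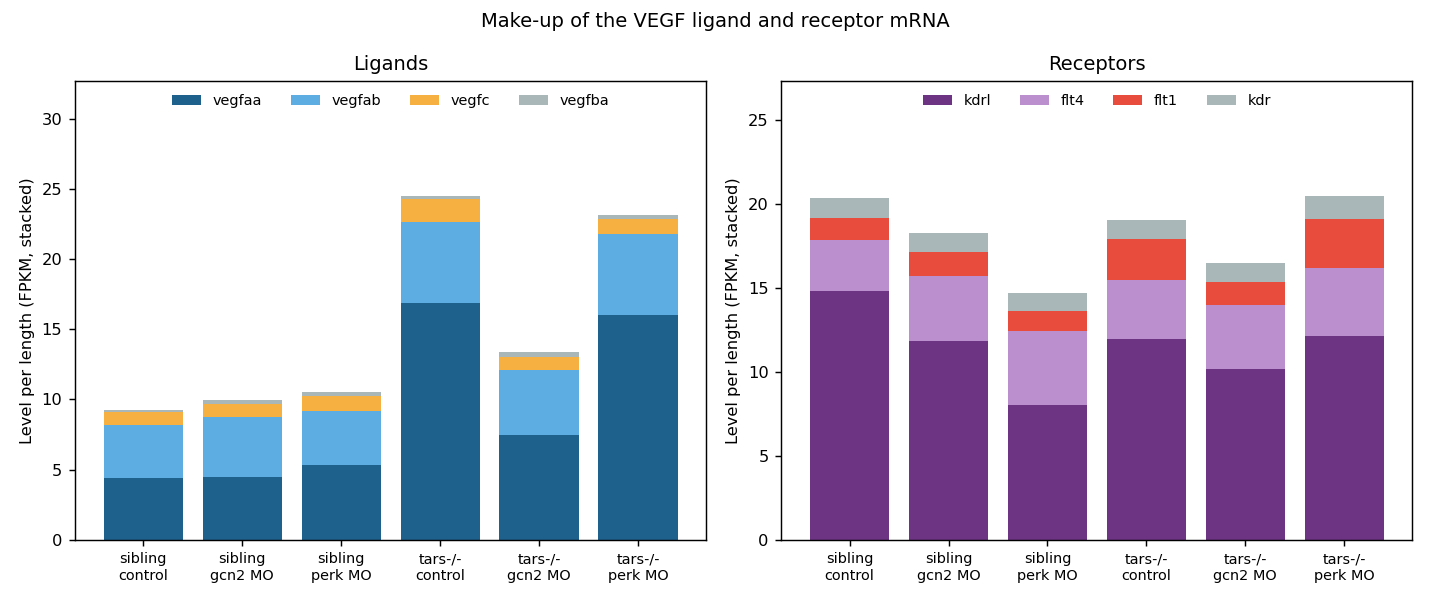
Stacked levels per length (deposited FPKM) of the 4 ligands (left) and the 4 receptors (right) in the 6 libraries. The ligand sum is 24.5 and 23.1 FPKM in the *tars*-/- control and with *perk* MO, mostly *vegfaa*, against 9.25 to 10.5 FPKM in the siblings, while the receptor sum, mostly *kdrl*, lies between 14.7 and 20.5 FPKM.

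The receptors are genes of endothelial cells, so their values are set beside 29 other endothelial markers, among them *cdh5*, *fli1a* and *erg*. The markers summed to 927 CPM in the sibling control and 884 CPM in the *tars*-/- control. Their median log2 ratio was 0.01 beside −0.11 for all genes, with 0 of 29 past 2-fold in either direction. Of all genes 1.11% were 2-fold higher and 0.568% lower, so a count of 0 does not set these markers apart. The 3 highest, among those whose mean reached 5 CPM, were *etv2*, a transcription factor of early endothelium, at a ratio of 1.48 (1.27 to 1.71), *egfl7*, a secreted endothelial protein, at 1.35 (1.15 to 1.60), and *erg*, at 1.27 (1.1 to 1.46). The 3 lowest of them were *prox1a*, a factor of lymphatic cells and neurons, at 0.817 (0.765 to 0.872), *mrc1a* at 0.842 (0.778 to 0.911) and *she* at 0.841 (0.763 to 0.927). Of the 29 markers 15 were higher in the *tars*-/- control. Under the same scaling by library totals, 33.4% of all genes were at or above a log2 ratio of −0.0014. *cdh5* and *fli1a*, named above as examples, were lower, with log2 ratios of −0.20 and −0.22. As a share of the marker sum *flt1* was at 0.769% in the sibling control and 1.51% in the *tars*-/- control, and the *tars*-/- libraries with morpholinos were at 0.918% (*gcn2* MO) and 1.76% (*perk* MO). Between *gcn2* MO and control in *tars*-/- embryos, the median log2 ratio of the 29 markers was −0.12 beside 0.09 for all genes. There 1 marker was 2-fold higher and 1 lower, against 2.97% and 2.68% of all genes.

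Of the other VEGF family genes, *figf*, which codes for a ligand of the VEGFD type, *nrp2a* and *nrp2b*, the remaining neuropilins, passed the abundance minimum, and *pgfb* and *vegfbb* did not. In the controls the genotype ratio was 1.31 for *figf* (0.951 to 1.81), 0.905 for *nrp2a* (0.857 to 0.957) and 1.04 for *nrp2b* (0.989 to 1.09), so none of these was past 1.5-fold. Of 4 genes for secreted factors that mature or bind Vegfc, *adamts3*, a protease that cleaves pro-VEGFC in mammals, had sibling levels of 13.4 (uninjected), 16.1 (*gcn2* MO) and 30.4 CPM (*perk* MO) and *tars*-/- levels of 16.8, 38.0 and 23.4 CPM. Its 2 highest libraries were those that stood apart in p53 target genes and neural markers, and the part of either in its level was not tested. In the controls, the genotype ratio was 1.33 for *ccbe1* (0.983 to 1.79), whose product aids that cleavage, 0.703 for *adamts14* (0.586 to 0.841) and 0.799 for *svep1* (0.731 to 0.872).

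Other ligand and receptor systems of the vessel wall showed 0 genes past 2-fold between the controls, where the shares of all genes were 1.11% higher and 0.568% lower, so a count of 0 does not set these lists apart. Among 8 genes of the related platelet-derived growth factor (PDGF) family the median log2 ratio was 0.12, and the highest was *pdgfaa*, a ligand gene, at 1.23 (1.13 to 1.34). Among 24 genes of other vessel-guidance systems, such as the Notch, Tie and chemokine receptors, the median was −0.16, beside −0.11 for all genes. The highest of these were *cxcr4a*, a chemokine receptor gene, at 1.49 (1.34 to 1.66), and *dll4*, a Notch ligand gene of sprouting tip cells, at 1.23 (1.1 to 1.39). The lowest were *s1pr2*, a receptor gene for sphingosine-1-phosphate, at 0.732 (0.663 to 0.808), and *notch3*, at 0.765 (0.750 to 0.780). Against the *tars*-/- control, the median log2 ratio of these 24 genes in *tars*-/- embryos with *gcn2* MO was −0.0086, beside 0.09 for all genes. Of them 11 were higher, where 59.8% of all genes were at or above a log2 ratio of −0.0018. *cxcr4a* was at 0.710 of the control there (0.634 to 0.793) and *dll4* at 0.593 (0.517 to 0.680), while *s1pr2* was at 1.09 (0.976 to 1.22) and *notch3* at 0.949 (0.928 to 0.970). These genes were named by their ratio between the controls. The *tars*-/- control enters both comparisons, so a high or low value in that library moves both ratios.

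In mammals VEGFA is a known target of ATF4, the factor of the amino acid response, and of the hypoxia-inducible factors. Genes of both kinds are set beside *vegfaa* here, and the part of either in its level was not tested. Of 18 genes of Atf4 and its targets, 14 were at least 2-fold higher in the *tars*-/- control than in the sibling control, against 1.11% of all genes. None was 2-fold lower, against 0.568%, and the median log2 ratio was 1.82. With *gcn2* MO in *tars*-/- embryos 10 of the 18 were at least 2-fold below the control, against 2.68% of all genes, with a median of −1.18. There 2 of the 18 were above the control, among them *slc3a2a* at 1.97 (1.89 to 2.06). With *perk* MO 0 were 2-fold below the control, against 0.5%, with a median of −0.19. Between genotypes with *gcn2* MO in both, 17 of the 18 were higher, with a median of 0.77. Of these, 6 were at least 2-fold higher, against 1.85% of all genes. The highest between the controls was *stc2a*, which codes for a stanniocalcin, at a ratio of 13.3 (12.1 to 14.7). With *gcn2* MO in *tars*-/- embryos *stc2a* was at 0.197 of the control (0.184 to 0.211). Of 27 genes of the hypoxia list the median was −0.16 between the controls, beside −0.11 for all genes. In that list, 2 were 2-fold higher, the glucose transporter gene *slc2a1b* at 2.15 (1.95 to 2.37) and *pfkfb4a*, a gene of a glycolysis regulator, at 2.14 (1.87 to 2.45), and 0 were 2-fold lower. The lowest were *egln2*, a gene of an oxygen-sensing prolyl hydroxylase, at 0.532 (0.438 to 0.645), and the glycolysis gene *ldha*, at 0.630 (0.605 to 0.657). When *tars*-/- embryos with *gcn2* MO were set against the *tars*-/- control, the median of the list was 0.13, beside 0.09 for all genes. There 17 of 27 genes were higher, where 59.8% of all genes were at or above a log2 ratio of −0.0018. These values do not set the list apart from all genes. With *gcn2* MO *slc2a1b* was at 0.677 (0.617 to 0.742), *pfkfb4a* at 0.576 (0.502 to 0.659) and *egln2* at 2.07 (1.7 to 2.52). With *perk* MO the median of the list was −0.086, beside 0.05 for all genes. Like *stc2a*, these genes were named by their ratio between the controls. Since the *tars*-/- control enters both comparisons, a high or low value in that library moves both ratios.

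**Figure D5:**
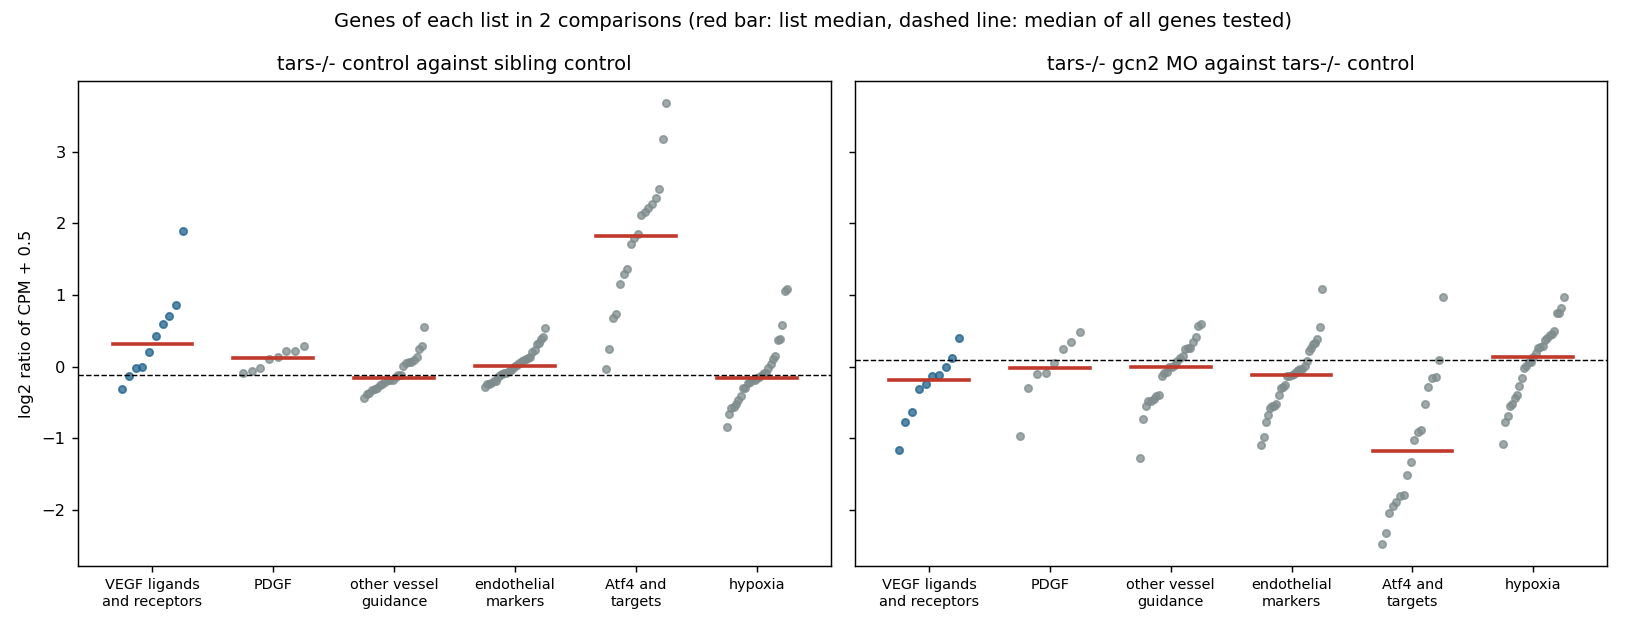
Log2 ratio of CPM + 0.5 for each gene of 6 lists (points), with the list's median (red bar) and the median of all genes tested (dashed line), in the *tars*-/- control against the sibling control (left) and in *tars*-/- embryos with *gcn2* MO against their control (right). The medians of the VEGF genes are 0.32 and −0.18, of the Atf4 genes 1.82 and −1.18 and of the endothelial markers 0.01 and −0.12.

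The genes whose log2 levels followed those of *vegfaa* most closely over the 6 libraries, among the 3428 genes whose mean reached 5 CPM and whose SD reached 0.3, were *stc2a* (Pearson r = 0.9997), the mitochondrial import gene *timm23a* (0.998), *bcan* (0.997), which codes for a proteoglycan of neural matrix, *mat2ab* (0.994), for a subunit of methionine adenosyltransferase, and *cars* (0.994), for cysteinyl-tRNA synthetase. *stc2a* had sibling levels of 11.6 (uninjected), 11.9 (*gcn2* MO) and 16.2 CPM (*perk* MO) and *tars*-/- levels of 155, 30.4 and 129 CPM, the order of libraries that *vegfaa* had. With n = 6 libraries, 116 of the 3428 genes had an r of at least 0.95 with *vegfaa*, 157 with *kdrl* and 74 with *flt1*.

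The genes most like *flt1* were *kcnj11l* (r = 0.994), *BX571711.3* (0.993), *aldh1l2* (0.993), a mitochondrial folate enzyme gene, *pora* (0.993), for cytochrome P450 reductase, and *tspan2b* (0.991). Those most like *kdrl* were *arglu1a* (r = 0.995), *clvs2* (0.993), *ank2b* (0.993), an ankyrin gene, *mark4a* (0.992), for a microtubule-affinity kinase, and *sh3bp5a* (0.989). *ank2b*, for example, had levels of 164, 122 and 80.1 CPM over the sibling libraries and 125, 105 and 137 CPM over the *tars*-/- libraries, so that siblings with *perk* MO were again the lowest library and the sibling control the highest. Among the members themselves, the r with *vegfaa* was 0.96 for *vegfab*, 0.92 for *flt1* and 0.08 for *kdrl*.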

How the data were processed

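The authors sequenced total RNA of whole embryos, aligned the reads to GRCz10 with HISAT2 (2.0.5), listed with SAMtools (1.7) in the submitters' processing notes, and counted reads on Ensembl genes (release 91) with HTSeq. Strand settings and the treatment of reads that map to several genes are not given in the sources used here, so reads could be split between near-identical copies. For each library the authors deposited unnormalized read counts, gene lengths and FPKM, the latter being the count divided by length and by the library total (relative deviation at most 5e-06). Files gave Ensembl identifiers and symbols and no positions. Counts were scaled by library total to CPM. Ratios had exact 95% Clopper-Pearson intervals, which cover counting error only, and ratios of 2 ratios had normal 95% intervals of the log counts. Log2 ratios were taken after adding 0.5 CPM, over the 19194 genes whose mean reached 1 CPM. Other tests used R 4.3.3 with edgeR 4.0.16 (TMM factors, quasi-likelihood) and DESeq2 1.42.0, Python 3.11.15 and SciPy 1.17.1. The intervals of the ratios and edgeR's genotype test were tried on simulated counts. Those for edgeR held a genotype effect alone, without an injection effect or a genotype effect that a morpholino changes. With 1 library per condition, the p-values of the genotype test measure only the spread of these libraries around the additive model, which may be technical.

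The members and the other lists were chosen with earlier results of these data known. All members were described. From each other list at most the 3 highest and 3 lowest genes between the controls with a mean of at least 5 CPM could be named, and for *vegfaa*, *kdrl* and *flt1* the 5 genes of highest Pearson correlation; the small VEGF family and Vegfc lists were given whole, chosen after their values were seen. The values of *cdh5* and *fli1a* were given outside this rule, after they had been computed. *ank2b* was picked as an example after its values were seen. Alternatives were other scalings, pseudocounts, folds and abundance minimums, DESeq2, no injection term and leaving out each injection pair.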

Additional observations from a re-analysis of the deposited data

Results flagged for a closer look

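Genotype ratios of 3 genes went in opposite directions in different injection states, each beyond counting error, and none of these differences was tested, since each condition had 1 library. *kdrl* had a ratio of *tars*-/- to sibling embryos of 0.806 in the controls and 0.855 with *gcn2* MO, but 1.52 with *perk* MO. *nrp1a* had a ratio of 0.895 with *gcn2* MO and 1.32 with *perk* MO, and *nrp1b* had 0.729 and 1.7. The effect of *perk* MO was also opposite in the 2 genotypes: *nrp1a* was at 0.848 of the control in siblings and at 1.14 in *tars*-/- embryos, and *nrp1b* at 0.762 and 1.42. The sibling library with *perk* MO, which also had the lowest sum of neural markers, enters each of these ratios with *perk* MO other than those within *tars*-/- embryos.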

How the results depend on the processing

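No paired analysis by replicate number was run, since the labels give none. The genotype test had the injection state as its block, and the injection pairs were left out in turn. Of 280 ratios of members under other scalings and a pseudocount, 272 moved by less than their counting interval and 0 reversed beyond counting error. The other 8 concerned *kdrl* and *nrp1a*. Between the controls their ratios were 0.874 and 1.07 with TMM factors and 0.867 and 1.06 with DESeq2 size factors, so *nrp1a* was at 0.983 or above 1 depending on the scaling. For *gcn2* MO against control in *tars*-/- embryos they were 0.791 and 0.863 with either. Of 70 ratios between libraries, 6 passed counting error under library totals and not under either other scaling, or the reverse, and 0 passed it in opposite directions: those of *vegfaa*, *kdr* and *flt4* for *perk* MO and of *nrp1b* for *gcn2* MO in *tars*-/- embryos, of *vegfab* for *gcn2* MO in siblings, and of *nrp1a* between the controls. TMM moved the median of all genes between the controls from −0.11 to 0.00 on the log2 scale, and that of the endothelial markers from 0.01 to 0.13. The number of genes past 2-fold was 322 between the controls, 179 with a pseudocount of 2 CPM and 1614 at 1.5-fold, and in the same order it was 580, 291 and 2661 between genotypes with *gcn2* MO, and 1036, 568 and 3731 with *perk* MO. For *gcn2* MO and *perk* MO in siblings it was 357, 167 and 1981, and 1490, 860 and 4581, and in *tars*-/- embryos 1085, 575 and 4061, and 246, 120 and 1594. Members past 1.5-fold in either direction numbered 4, 1 and 4 in the genotype comparisons (controls, *gcn2* MO, *perk* MO), 1 and 2 for *gcn2* MO and *perk* MO in siblings and 3 for *gcn2* MO in *tars*-/- embryos.

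For the genotype effect, edgeR called 0 genes at an adjusted p of 0.05 (669 at an unadjusted p under 0.05). DESeq2 called 191 genes and 1 member, and edgeR without an abundance minimum called 2 genes. The added model without the 2 libraries that stood apart, in which genotype and morpholino are mixed, called 192 genes and 1 member. Leaving out the injection pairs gave between 0 genes (without the uninjected pair) and 285 genes (without the *gcn2* MO pair, 133 without the *perk* MO pair), and between 0 and 2 members. The 2 members without the *gcn2* MO pair were *vegfaa* (edgeR adjusted p = 5.12e-05) and *flt1* (adjusted p = 0.0173). That pair held the lowest genotype ratio of both genes, 1.66 for *vegfaa* and 0.959 for *flt1*. Leaving it out therefore raises their fold changes by construction, and these calls are no further support. Log2 fold changes that changed sign were not called in either case: *kdrl* was at 0.05 (−0.070 in the added model), and leaving out each pair gave −0.22 (without *perk* MO) to 0.20 (without *gcn2* MO). *nrp1a* was at 0.11 and ranged from −0.044 to 0.24, and *nrp1b* was at 0.10 and ranged from −0.24 to 0.37, with the same pairs left out. *flt4* was at 0.06 and ranged from −0.080 without the uninjected pair to 0.15 without the *perk* MO pair. The cause of these shifts was not tested, and each of these fits also had fewer libraries. *vegfba* and *vegfc*, with 46 to 130 reads per library, are the members whose ratios depth limits most.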
